A study of Mus musculus with 14 samples.

Results

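The knock-in fusion gene Cbfb-MYH11 and the loss of Cbfb were each compared with their own littermates in embryonic mouse blood, and the quantity described here is the difference of these 2 effects. For every gene it is the change from WT to Cbfb+/MYH11 (the fusion effect) minus the change from Cbfb+/+ to Cbfb-/- (the null effect), on the log2 scale. All 14 arrays of the series enter it, in 4 groups, and no measured value was used to choose them. A positive difference means that the change was more upward with the fusion than with the loss of Cbfb, and a negative difference that it was more downward. The contrast asks which parts of the response to the fusion are not matched by the absence of Cbfb.

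The first cross, labelled Cbfb+/MYH11 x C57/Bl6, gave 4 arrays of Cbfb+/MYH11 and 4 of WT. The embryos of this cross descend from chimeras mated to C57/Bl6 females, and the fusion embryos keep 1 normal Cbfb allele. Matings of Cbfb+/- with Cbfb+/- gave 3 arrays of Cbfb-/- and 3 of Cbfb+/+. Every array held peripheral blood pooled from 8 to 10 embryos of 1 genotype (E12.5), and the labels name no treatment. In the titles the arrays within a group are numbered as technical replicates. The tests below therefore rest on array-to-array spread and may not cover the spread between litters.

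Core binding factor is a transcription factor made of a DNA-binding RUNX protein and its partner CBFB, which strengthens the binding. Definitive blood formation in the embryo needs both RUNX1 and CBFB. The fusion of CBFB with smooth muscle myosin heavy chain arises from inversion of chromosome 16 in acute myeloid leukemia and is known as a dominant inhibitor of core binding factor. Blood at this stage of mouse development consists mostly of primitive red cells from the yolk sac, with a few megakaryocytes, macrophages and progenitors.

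The values were the authors' log2 values, with array medians between 4.27 and 4.46. A gene was tested when its probe set reached a log2 value of 6 on at least 3 arrays, which left 7392 of 18193 genes. Arrays 1 and 2 of each group of the fusion cross resembled each other more than they resembled arrays 3 and 4 of the same group. Over the genes tested, the standard deviation of the difference between 2 arrays of a group was 0.114 to 0.276 within these pairs and 0.365 to 0.714 between them. In the other cross it was 0.199 to 0.218. Each difference was therefore also computed with arrays 1 and 2 alone and with arrays 3 and 4 alone, and these values are given for some genes and lists. The embryonic globins Hba-x, Hbb-bh1 and Hbb-y, which define primitive red cells, read 13.96 to 14.55 on all 14 arrays, and 14.55 was the highest value of any probe set.

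A gene was called when limma's adjusted p for the difference was under 0.05 and the difference was at least 1.5-fold. This held for 1548 genes (20.9%), of which 1099 (14.9%) were higher, that is had a positive difference, and 449 (6.07%) were lower. With the replicate number as a block the lower genes numbered 683. The median difference over all genes tested was 0.09 on the log2 scale, and the median 95% interval reached 0.44 to either side. Higher genes made up 71.0% of the calls, but 58.9% after quantile normalization. Of the called genes 1251 (16.9% of those tested) were called with the same sign in each array pair, 888 higher (12%) and 363 lower (4.91%). Treating the array pairs as random blocks, which lets arrays of a pair vary together, left 220 calls, 194 higher and 26 lower. For a fit of 6 putative pools, each array pair of the fusion cross was averaged, and so were all arrays of each group of the other cross. The other cross then had a single pool per group, so the spread came from the fusion cross alone. In these pools limma called 0 genes. The unadjusted p was under 0.05 in 571, with a smallest adjusted p of 0.308.

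**Figure D1:**
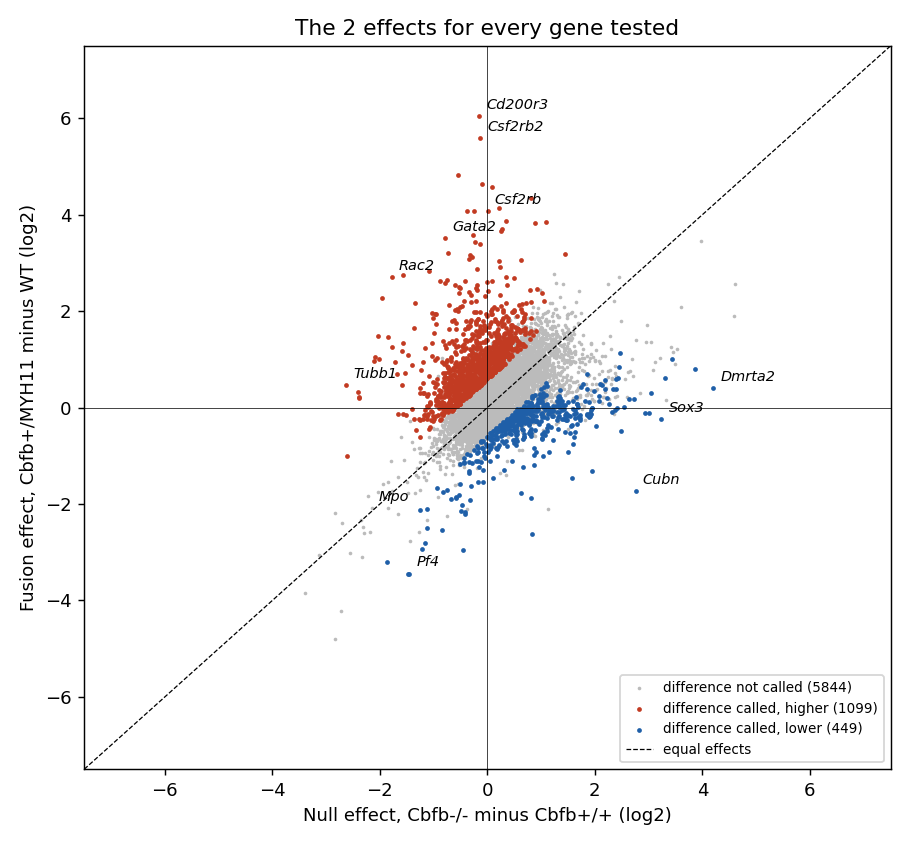
Each point is 1 of the 7392 genes tested, with the null effect on the horizontal axis and the fusion effect on the vertical axis, both on the log2 scale. Genes with a called difference lie above the dashed line of equal effects where it was higher (1099, red) and under it where it was lower (449, blue), and Cd200r3 and Csf2rb2 sit high on the fusion axis near a null effect of 0.

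Sorted by the 2 effects that make up the difference, the largest class had a called fusion effect and no called null effect. It held 713 of the 1548 genes (46.1%), 634 of them higher. A further 394 genes (25.5%) had a called null effect and no called fusion effect, 236 of them lower. Both effects were called with opposite signs in 95 genes (6.14%), of which 81 rose with the fusion and fell with the loss of Cbfb. Both were called with the same sign but unequal size in 50 genes (3.23%), and neither was called in 296 (19.1%). Of the 1099 higher genes 139 passed the filter through the fusion arrays alone, against 214 of all genes tested. Of the 449 lower genes 42 passed it through the null arrays alone, against 68 of all genes tested. The class counts therefore follow in part from the filter. Differences of at least 8-fold were found in 41 higher and 9 lower genes, each of which was also called in both array pairs.

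**Figure D2:**
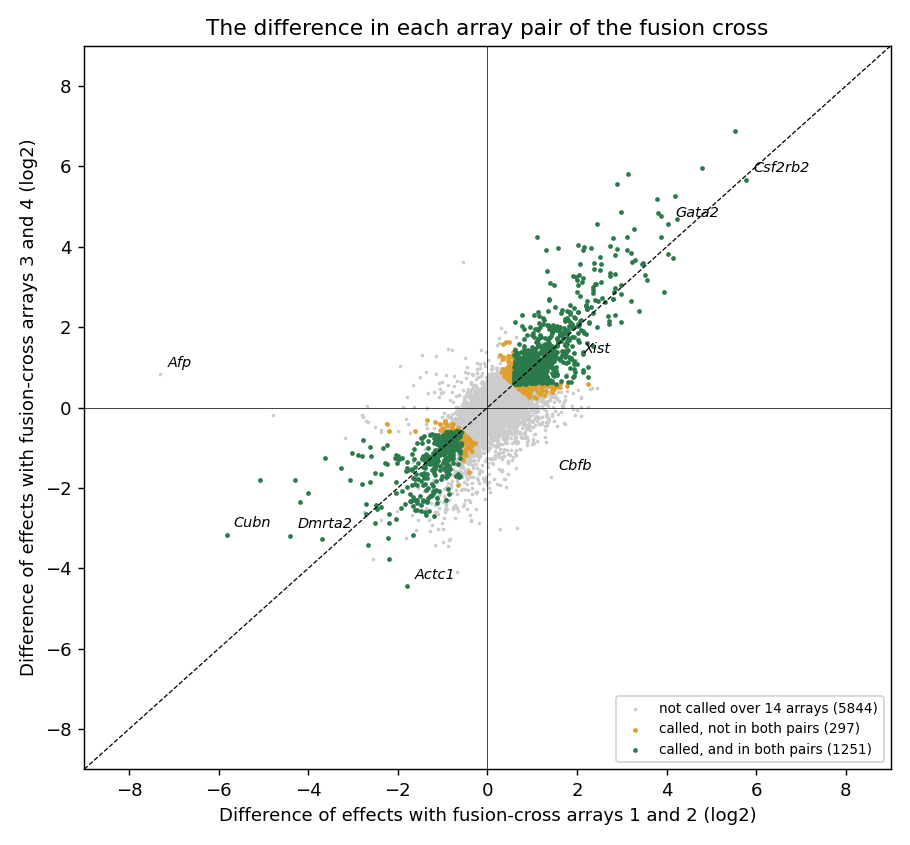
Each point is a gene, with the difference computed from arrays 1 and 2 of the fusion cross on the horizontal axis and from arrays 3 and 4 on the vertical axis (log2), against the same 6 arrays of the other cross. The 1251 green genes were called over 14 arrays and in each pair, while Cbfb and Afp, the alpha-fetoprotein of liver and yolk sac, lie far from the dashed line of equal values.

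The receptor chain Csf2rb and its neighbour Csf2rb2 gave the plainest case of an effect seen with the fusion and not with the null. Csf2rb encodes the common beta chain shared by the receptors for interleukin-3, interleukin-5 and granulocyte-macrophage colony-stimulating factor, and Csf2rb2 encodes a closely related chain that serves interleukin-3 alone. Csf2rb2 read 11.02, 11.04, 11.17 and 11.29 in Cbfb+/MYH11, against 5.17, 5.62, 5.69 and 5.70 in WT, with 6.03, 5.87 and 6.15 in Cbfb-/- and 6.17, 6.07 and 6.22 in Cbfb+/+. All 4 fusion arrays stood far above the other 10, which lay close together. The difference was 5.72 (95% interval 5.32 to 6.12), or 52.8-fold, with an adjusted p of 1.5e-09. It was 5.77 with arrays 1 and 2 and 5.67 with arrays 3 and 4, and as 6 pools its 95% interval ran from 4.75 to 6.69.

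Csf2rb read 11.37, 11.30, 11.57 and 11.64 in Cbfb+/MYH11, 7.31 to 7.52 in WT, 7.55 to 7.71 in Cbfb-/- and 7.55 to 7.71 in Cbfb+/+. The fusion group again did not overlap the others, and the null effect was 0.00. The difference was 4.06 (3.76 to 4.36), adjusted p 1.5e-09, and the other probe set of the gene gave 4.32. Because the 2 genes are near-identical in sequence, part of either signal could come from the other. None of the other 5 tested neighbours was higher. Ncf4, a subunit of the phagocyte oxidase, had a difference of 0.31 (0.02 to 0.59, adjusted p 0.11), and Cacng2, Tst and Mpst were not called at -0.24, -0.03 and -0.32. Kctd17 was lower at -0.91, but not with array pairs as random blocks (adjusted p 0.577). The partner chains Csf2ra and Il3ra did not pass the filter on low values, with highest array values of 6.04 and 5.25.

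Of 8 cytokine receptors tested, 5 were higher and 1 was lower (75% called, against 20.9% of all genes), with a median of 1.61. Over all 18 with a probe set the median was 0.10. Besides the beta chains these were Epor, the erythropoietin receptor (1.13, adjusted p 8.3e-04), Il10rb, a chain of the interleukin-10 receptor (2.09), and Csf1r, the receptor for macrophage colony-stimulating factor (2.62). Il17ra was lower at -0.92. With array pairs as random blocks Csf2rb, Csf2rb2 and Il10rb stayed called. Among 18 signalling genes that act below such receptors, 3 were higher and 1 lower (22.2% called, against 20.9% of all genes), with a median of 0.18. Under random blocks Inpp5d alone stayed called, and Jak2 was at an adjusted p of 0.207. The kinase Jak2 was at 1.21, the lipid phosphatase Inpp5d at 2.69 with 1 probe set and 0.71 with another, and the feedback inhibitor Socs2 at 0.74, while its relative Socs3 was at -0.61. The calls of Socs2 and Socs3 were lost without any 1 of 3 and of 2 arrays, at differences of 0.70 and -0.54 at the least. Jak2 read 7.70 to 8.02 in Cbfb+/MYH11, 6.95 to 7.10 in WT, 5.85 to 6.16 in Cbfb-/- and 6.22 to 6.67 in Cbfb+/+, so the fusion and null groups fell on opposite sides of their littermates, although the null effect of -0.39 was not called.

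Of 20 listed genes of basophils, mast cells and eosinophils with a probe set, 8 were tested. Higher were 7 of these (87.5%, against 14.9% of all genes), with a median of 3.35 against 0.09 for all genes. For 6 of the 8 the filter was passed through the fusion arrays alone, so the count and the median follow in part from the filter. Without a filter the 20 genes gave 9 higher, 0 lower and a median of 0.32. In blood pools, more cells of a type and more RNA per cell cannot be told apart.

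Cd200r3, an activating receptor of basophils and mast cells, had the largest difference of all genes tested. It read 8.04, 8.13, 8.99 and 9.12 in Cbfb+/MYH11 and between 2.30 and 2.92 on the other 10 arrays, so that only the fusion arrays passed the filter value of 6. The difference was 6.21 (5.43 to 6.98), adjusted p 2.3e-07. Ms4a2, a signalling chain of the receptor through which IgE activates mast cells, read 8.12, 8.22, 8.99 and 9.03 in Cbfb+/MYH11 and 3.42 to 4.39 elsewhere, a difference of 5.38 (4.66 to 6.11). Hdc, which makes histamine, was at 3.42, the mast cell protease Cpa3 at 3.37, the amine transporter Slc18a2 at 3.32, the leukotriene enzyme Alox5 at 3.05 and the transcription factor Mitf at 2.91. In Cd200r3, Ms4a2 and Hdc the arrays 3 and 4 of the fusion were above arrays 1 and 2, while in Cpa3 they were below. Cpa3 and Slc18a2 also fell in Cbfb-/-, with null effects of -0.78 and -1.85. In the fit with random blocks 6 of the 7 stayed called, all but Mitf.

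Csf2rb2, Cd200r3 and Ms4a2 are the 3 genes with the largest differences, and their promoters are shown for that reason alone. Their shared rise with the fusion follows from this choice. The sequences are the 250 bases before the start of each gene in RefSeq (GRCm38.p6), with capitals at matches to the GATA motifs AGATAA or TGATAA on either strand.
Csf2rb2, minus strand, chr15:78305722-78305971: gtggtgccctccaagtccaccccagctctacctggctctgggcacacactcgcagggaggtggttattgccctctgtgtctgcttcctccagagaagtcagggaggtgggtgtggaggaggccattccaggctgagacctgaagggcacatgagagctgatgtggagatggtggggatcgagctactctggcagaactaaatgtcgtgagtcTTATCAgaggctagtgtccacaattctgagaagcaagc
Cd200r3, plus strand, chr16:44943428-44943677: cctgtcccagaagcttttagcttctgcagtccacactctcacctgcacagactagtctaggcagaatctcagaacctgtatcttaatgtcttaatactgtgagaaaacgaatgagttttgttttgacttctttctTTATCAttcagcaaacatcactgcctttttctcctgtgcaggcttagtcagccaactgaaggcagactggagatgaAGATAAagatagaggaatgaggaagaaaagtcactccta
Ms4a2, minus strand, chr19:11623720-11623969: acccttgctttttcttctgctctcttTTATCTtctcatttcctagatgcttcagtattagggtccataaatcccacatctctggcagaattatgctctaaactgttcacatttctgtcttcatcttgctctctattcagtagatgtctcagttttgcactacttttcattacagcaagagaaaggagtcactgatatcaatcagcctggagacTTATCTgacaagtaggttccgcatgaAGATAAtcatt

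The window of Csf2rb2 held 1 GATA match, that of Cd200r3 2 and that of Ms4a2 3. A search for the RUNX motifs TGTGGT and TGCGGT, on both strands, found 0 in each. Overlapping matches were each counted, and a RUNX and a GATA match can overlap only at their ends. Of 27025 promoters of this length 17% held a GATA match and 18.7% a RUNX match. Among the 6053 tested genes with a promoter in the table these shares were 8.77% and 17%. Among 737 genes called higher in both array pairs they were 9.36% and 18.7%, and among 292 called lower 11% and 12.3%. All 7 higher genes of the basophil list had a promoter there, and 4 of these held a GATA match and 3 a RUNX match. For 6 of the 8 tested genes of that list the filter was passed through the fusion arrays alone. These few genes were compared with no set chosen in a like way. A match is a description of letters and not a bound site.

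Gata2, a transcription factor of stem cells, progenitors and mast cells, read 9.94, 10.15, 9.99 and 9.95 in Cbfb+/MYH11. It read 6.79, 6.80, 6.13 and 6.26 in WT, 5.08, 5.97 and 6.25 in Cbfb-/- and 6.61, 6.60 and 6.44 in Cbfb+/+. The fusion arrays stood alone at the top and the null arrays were below their littermates, with effects of 3.51 and -0.78. The difference was 4.30 (3.57 to 5.03), or 19.7-fold, adjusted p 2.2e-06. Of 17 progenitor transcription factors tested, 9 were higher and 0 lower (52.9% called, against 20.9% of all genes), with a median of 0.95. The 9 were also called in both array pairs, as 9 were after quantile normalization. With array pairs as random blocks Cebpa, Gata2, Ikzf2, Lmo2 and Myb stayed called. For 3 of the 17 the filter was passed through the fusion arrays alone. Without a filter the 27 with a probe set gave 10 higher, 0 lower and a median of 0.23.

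The hematopoietic regulator Myb gave values that parted in both directions. It read 6.82 to 7.10 in Cbfb+/MYH11, 5.42 to 5.82 in WT, 3.83 to 4.51 in Cbfb-/- and 5.54 to 5.84 in Cbfb+/+. The 2 littermate groups overlapped, the fusion arrays were above both and the null arrays below both. The difference was 2.91 (2.44 to 3.39), adjusted p 1.5e-06. Lmo2, a bridging protein of the blood stem cell complex, followed the same order at 2.34 (2.00 to 2.67). Its values were 10.42 to 10.47, 8.63 to 9.08, 7.75 to 8.07 and 8.53 to 8.62 in the same 4 groups. Cebpa, the granulocyte and monocyte regulator, was at 3.39 and Spi1, which encodes PU.1, at 2.04. Ikzf2 (2.97), Hhex (1.40), Myc (1.24) and Lyl1 (0.95) made up the rest.

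**Figure D3:**
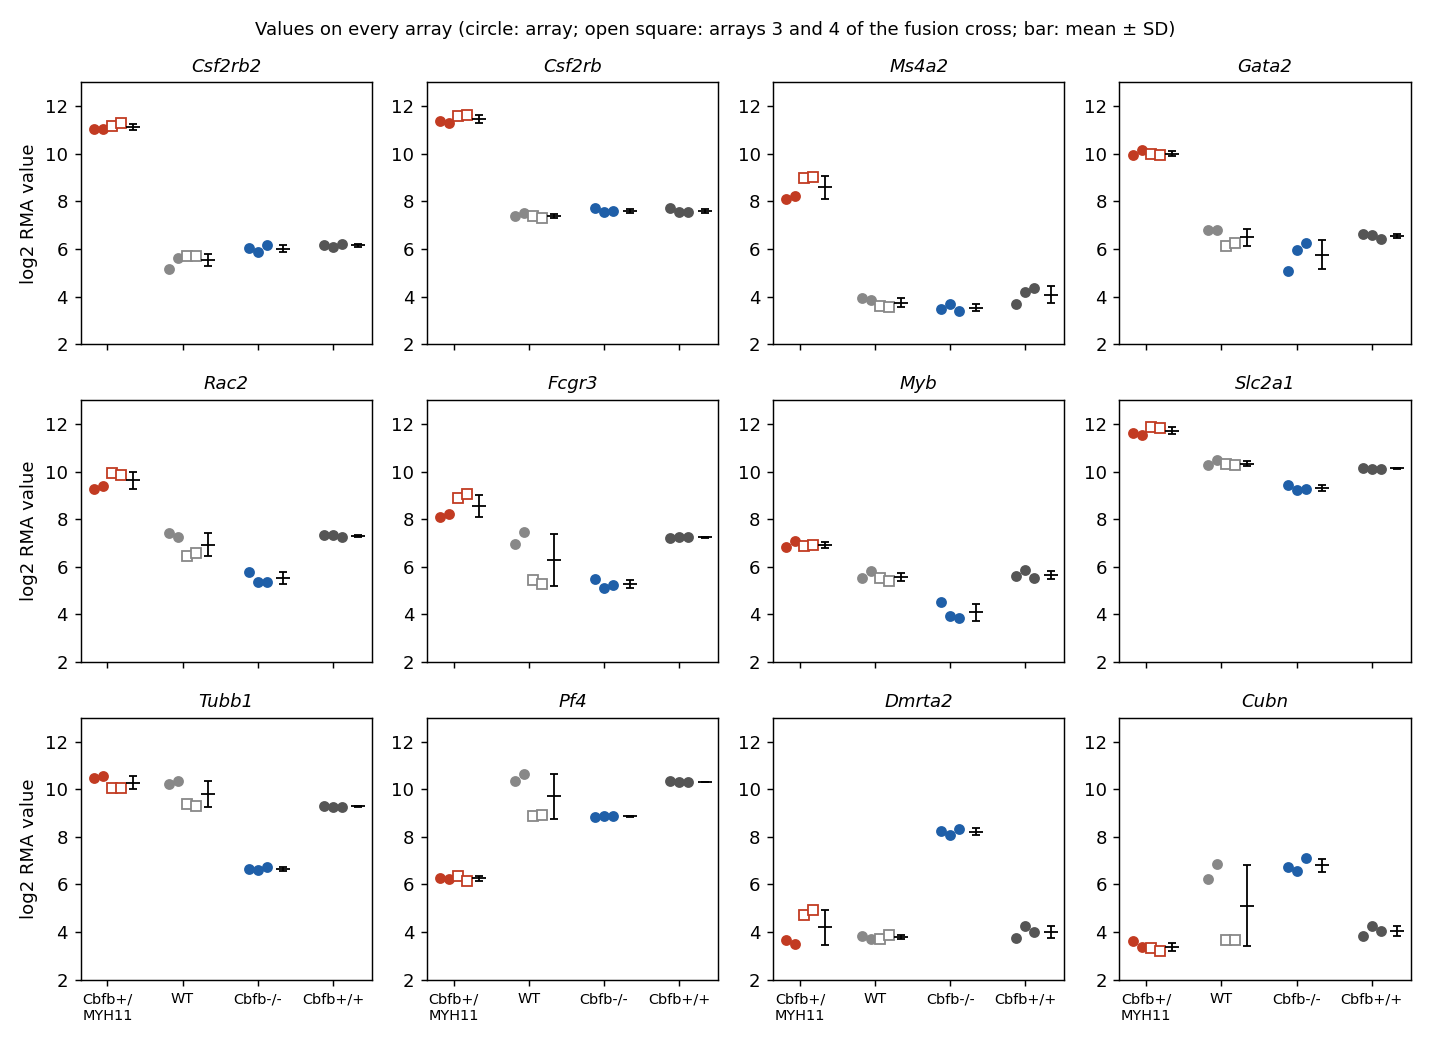
Values on every array for 12 genes in the 4 groups, on the log2 scale, with open squares for arrays 3 and 4 of the fusion cross and black bars for the mean and standard deviation. Csf2rb2, Csf2rb, Ms4a2 and Gata2 are high in Cbfb+/MYH11 only, Rac2, Myb and Slc2a1 lie above the littermates in Cbfb+/MYH11 and below them in Cbfb-/-, and Dmrta2 is high in Cbfb-/-.

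Rac2 and the other genes of this paragraph rose with the fusion and fell with the null. They were named for that pattern, for the size of the difference or after their values were seen, and form no list. Rac2, a small GTPase of blood cells that serves the phagocyte oxidase, read 9.28, 9.39, 9.95 and 9.87 in Cbfb+/MYH11, against 7.40, 7.27, 6.45 and 6.58 in WT. It read 5.80, 5.38 and 5.37 in Cbfb-/- and 7.32, 7.32 and 7.25 in Cbfb+/+. The groups of each cross did not overlap, and the effects were 2.70 and -1.78, for a difference of 4.48 (3.75 to 5.21), adjusted p 1.4e-06. The adaptor Dapp1 behaved alike at 4.32, with effects of 2.76 and -1.56. Fcgr3, a low-affinity receptor for IgG, was at 4.23 (2.86 to 5.59), but its WT values of 6.98, 7.45, 5.46 and 5.26 split by array pair, and the difference was 2.90 in one pair and 5.55 in the other. The lysosomal enzyme Lyz1 (3.51), the leukocyte integrin Itgb2 (3.51) and the pyrophosphate transporter Ank (3.01) had the same signs. So did Srgn (3.92), the core protein of secretory granules, Spns2 (3.93), an exporter of sphingosine-1-phosphate, and the matrix protein Emilin2 (3.51). Under random blocks Lyz1 and Itgb2 were no longer called.

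**Figure D4:**
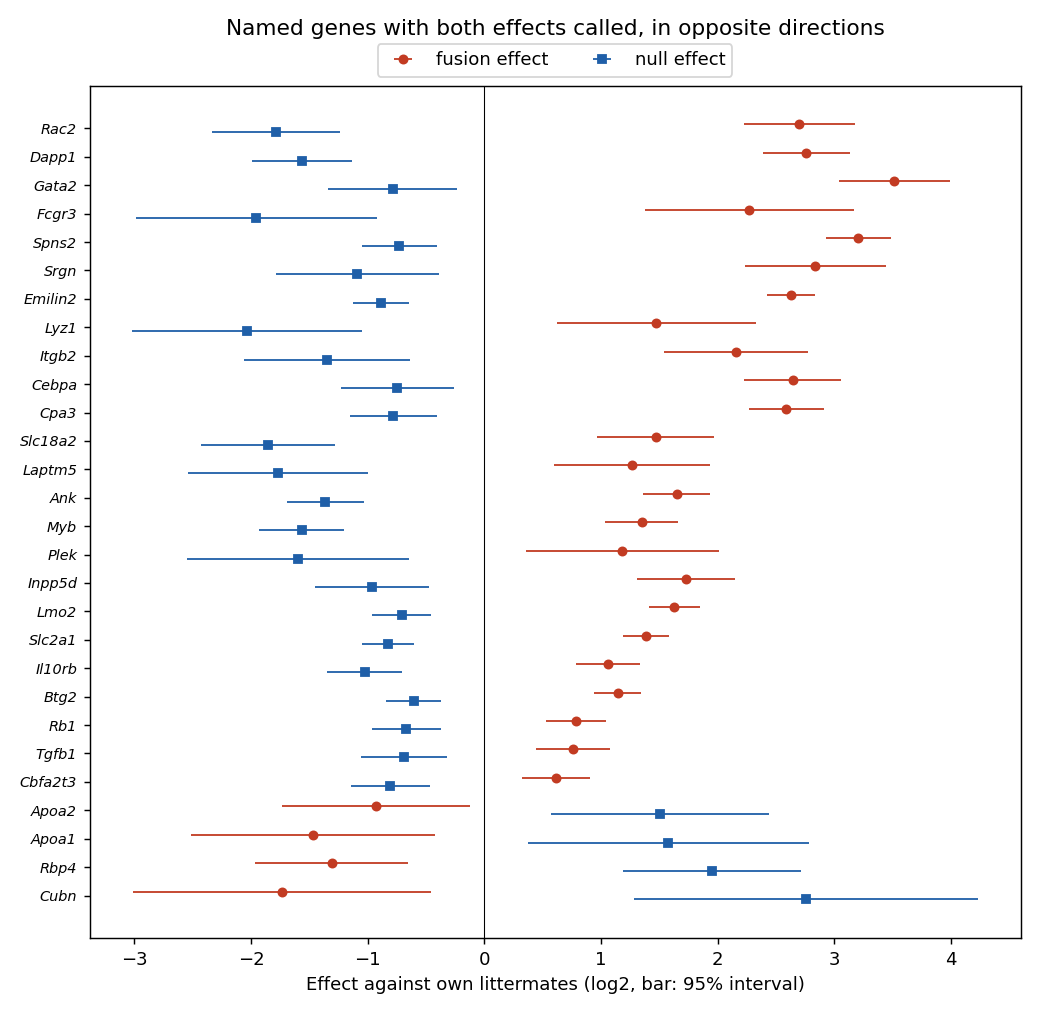
Named genes with both effects called in opposite directions, with the fusion effect (red circle) and the null effect (blue square) against own littermates on the log2 scale and bars for 95% intervals. From Rac2 down to Cbfa2t3 the fusion effect is positive and the null effect negative, and in Apoa2, Apoa1, Rbp4 and Cubn the signs are turned.

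The monocyte and macrophage list as a whole did not move one way. Of 20 genes tested 8 were higher and 1 lower (45% called, against 20.9% of all genes). The list's median of 0.17 was -0.23 with arrays 1 and 2 and 1.02 with arrays 3 and 4. In the null 17 of the 20 fell and 0 rose (all genes 6.66% and 19.5%). With the fusion 11 fell and 4 rose (all genes 5.63% and 30.5%). The mannose receptor Mrc1 had effects of -3.84 and -3.39 and no called difference (-0.46). Csf1r, Apoe and Lyz2, by contrast, had differences of 2.62, 2.67 and 2.37. Their differences with arrays 3 and 4 were 3.92, 4.24 and 3.40, and with arrays 1 and 2 they were 1.32, 1.11 and 1.34. Csf1r read 9.74 and 9.85 in WT arrays 1 and 2 and 7.74 and 7.53 in arrays 3 and 4. Its 3 probe sets gave differences from 0.87 to 2.62, and 1 of them was called. Cd14 (1.04) and Laptm5 (3.04) were also higher, although the probe sets of Laptm5 ran from -0.23 to 3.04. The protease Lgmn was lower at -0.68. The calls of Cd14 and Lgmn were lost without any 1 of 11 arrays (adjusted p up to 0.12 and 0.09), and with array pairs as random blocks Fcgr3 and Laptm5 alone stayed called.

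Of 23 megakaryocyte and platelet genes tested, 20 fell and 0 rose in the null (all genes 6.66% and 19.5%), and 15 fell and 3 rose with the fusion (all genes 5.63% and 30.5%). The difference gave 6 with a higher and 3 with a lower value (39.1% called, against 20.9% of all genes). Its median of 0.02 was -0.54 with arrays 1 and 2 and 0.61 with arrays 3 and 4. Tubb1, the platelet tubulin, was the member that parted most. It read 10.45, 10.54, 10.03 and 10.04 in Cbfb+/MYH11, against 10.20, 10.33, 9.37 and 9.32 in WT, 6.59 to 6.74 in Cbfb-/- and 9.27 to 9.29 in Cbfb+/+. The null arrays stood alone at the bottom, and the fusion effect of 0.46 was not called. The difference was 3.08 (2.37 to 3.79), adjusted p 2.3e-05. The thrombin receptor F2r (1.54), Plek (2.78), Tgfb1 (1.44), the integrin Itga2b (1.53) and Gp5 (1.38) were also higher. The call of Gp5 was lost without any 1 of 4 arrays (adjusted p up to 0.068), and with array pairs as random blocks Tubb1 and Tgfb1 stayed called.

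Platelet factor 4, Pf4, went the other way. It read 6.15 to 6.36 in Cbfb+/MYH11 against 10.36, 10.64, 8.87 and 8.92 in WT, and 8.82 to 8.88 in Cbfb-/- against 10.29 to 10.32 in Cbfb+/+. Both mutants were below their littermates, with effects of -3.44 and -1.45, and the difference was -1.99 (-3.07 to -0.92), adjusted p 0.01. The WT values split by array pair, and with array pairs as random blocks Pf4 was not called (adjusted p 0.0985). The secreted chaperone Clu (-1.79) and the myosin light chain Myl9 (-0.98) were lower too, but Myl9 was not called without any 1 of 9 arrays (adjusted p up to 0.07), and neither stayed called with random blocks (adjusted p 0.202 and 0.29). Ppbp and F13a1 fell in both mutants, at effects of -4.80 and -2.84 and of -4.23 and -2.73, and their differences of -1.96 and -1.50 were not called (adjusted p 0.055 and 0.25). Without WT array 3 or WT array 4 Ppbp was called, at -2.32 and -2.36.

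Some genes changed by like amounts in both mutants over the 14 arrays. In 126 genes both effects were called with the same sign and the 95% interval of the difference lay within 1.5-fold, 84 of them up and 42 down. With array pairs as random blocks, or as 6 pools, 0 genes met this rule, so that an equal change holds only against the spread between single arrays. Mpo, the peroxidase of granulocyte precursors, read 4.66 to 4.91 in Cbfb+/MYH11 and 6.77 to 6.91 in WT, 5.49 to 5.89 in Cbfb-/- and 7.58 to 7.92 in Cbfb+/+. Each mutant was clear of its littermates, at effects of -2.08 and -2.15, and the difference was 0.07 (-0.29 to 0.43, or -0.73 to 0.87 as pools). Eif4a1, a translation initiation helicase, rose by 1.25 in both with a difference of -0.00 (-0.35 to 0.34, or -0.997 to 0.994 as pools). The other genes of this kind with the largest changes were Farsa, Nop56, Cdc45, Etf1 and Thumpd1 upward, and Rnf11, Trim13, Nagpa, Slc25a51 and Tspan18 downward, with differences from -0.18 to 0.22. For Tspan18 another probe set gave -0.89, so its place here depends on the probe set.

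Red cell regulators with a called difference were all higher over the 14 arrays. Of 21 erythroid transcription factors tested 12 were higher and 0 lower (57.1% called, against 20.9% of all genes), with a median of 0.79. After quantile normalization 9 were higher and 1 lower. The median fusion effect of the list was 0.01 and the median null effect -0.57, and 8 of the 21 fell in the null (all genes 6.66%). Gata1, the master regulator of red cells and megakaryocytes, read 10.64, 10.79, 10.43 and 10.42 in Cbfb+/MYH11, 9.72 to 9.97 in WT, 9.79 to 9.86 in Cbfb-/- and 10.25 to 10.28 in Cbfb+/+. The fusion arrays were above WT, and the null arrays below Cbfb+/+, with a difference of 1.20 (0.89 to 1.51), adjusted p 5.5e-05. Its cofactor Zfpm1 was at 1.08, Klf1 at 1.10, Ikzf1 at 1.55 with 1 probe set and 0.46 with another, Nfe2 at 0.91 and Gfi1b at 0.90. For Klf1 and Gfi1b WT minus Cbfb+/+ was -0.66 and -0.56, and Cbfb+/MYH11 minus Cbfb-/- was 0.45 and 0.33. Their differences thus start from unequal littermates. Sox6 (0.96), E2f2 (1.03), Foxo3 (1.12), Bach1 (0.79) and Mafk (0.66) were called as well. The probe sets of Foxo3 ran from -0.17 to 1.12 and those of E2f2 from 0.48 to 1.03. Cbfa2t3, a corepressor of this group, was at 1.42 with 1 probe set and 0.12 with another, and was not called when probe sets were averaged (0.48). The call of Gfi1b was lost without Cbfb+/+ array 1 or Cbfb-/- array 2 (adjusted p 0.051), and with array pairs as random blocks Gata1, Ikzf1 and Klf1 stayed called.

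Of 20 genes of heme synthesis and iron 8 were higher and 0 lower (40% called, against 20.9% of all genes), with a median of 0.54. After quantile normalization 6 were higher and 1 lower. Tfrc, the transferrin receptor, was at 1.28 (0.98 to 1.57), adjusted p 2.5e-05. The heme enzymes Ppox (1.40), Cpox (1.33), Uros (1.26) and Urod (0.60) were higher, as were the glycine carrier Slc25a38 (1.12), Tfr2 (0.85) and the iron transporter Slc11a2 (0.60). The last of these and Urod fell under the 1.5-fold limit without any 1 of 5 and of 4 arrays, to 0.51 and 0.56 at the least. When probe sets were averaged Ppox was not called (0.46), and with array pairs as random blocks Ppox, Cpox, Uros and Tfrc stayed called. The WT arrays differed from Cbfb+/+ by -1.33 for Cpox, so that its fusion effect of 1.48 and its null effect of 0.15 start from unequal littermates. For Slc25a38, Urod and Slc11a2 WT minus Cbfb+/+ was -0.62, -0.46 and -0.46. Cbfb+/MYH11 minus Cbfb-/- was 0.51, 0.14 and 0.13 for the same genes. Of the 4 globins tested 0 were called by limma, with 0 also after quantile normalization, 2 at an unadjusted p under 0.05 and a median of -0.14. Hbb-bh1 was at 0.46 (adjusted p 0.00225), under the 1.5-fold limit. Hba-x, Hbb-bh1 and Hbb-y read 13.96 to 14.55, up to the highest value of any probe set. Whether the arrays could register a difference at that level was not tested.

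Slc2a1, the glucose transporter of red cells, differed from the littermates in opposite directions in the mutants. It read 11.55 to 11.88 in Cbfb+/MYH11, 10.27 to 10.47 in WT, 9.23 to 9.43 in Cbfb-/- and 10.11 to 10.17 in Cbfb+/+. The 4 groups did not overlap, with the fusion arrays highest and the null arrays lowest, and the difference was 2.21 (1.91 to 2.51), adjusted p 3.8e-07. Of 21 red cell membrane genes tested it was among 5 higher ones, with Gypc (1.44), Ank1 (0.89), Ermap (0.86) and Icam4 (0.82), while Cd24a was lower (-1.08). The calls of Ank1 and Ermap were lost without any 1 of 10 and of 5 arrays (adjusted p up to 0.085 and 0.071). The probe sets of Ank1 ran from -0.07 to 0.89, and it was not called when they were averaged (0.21). After quantile normalization 2 were higher and 1 lower. The list's share called was 28.6%, against 20.9% of all genes, and its median was -0.01. For 1 of its 21 genes the filter was passed through the null arrays alone. With array pairs as random blocks Gypc and Slc2a1 alone stayed called. Among 19 genes of late red cell maturation 3 were higher, Hemgn (1.95), Ulk1 (0.96) and Slc6a9 (0.64), and 2 lower, Bpgm (-1.08) and Isg20 (-0.76). This second list's share called was 26.3%, against 20.9% of all genes, with a median of 0.03. In the fit with random blocks Hemgn alone stayed called. Slc6a9 and Isg20 each lost their call without any 1 of 10 arrays (adjusted p up to 0.11 and 0.12).

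Of 35 genes of replication and mitosis 32 rose with the fusion (all genes 30.5%) and 19 in the null (all genes 19.5%). A called difference was found in 6 (17.1%, against 20.9% of all genes), all higher, with a median of 0.71 over the 35. That median was 1.29 with arrays 1 and 2 and -0.05 with arrays 3 and 4. The 6 were Ccnb2 (1.42), Cenpa (1.15), Birc5 (1.05), Mybl2 (1.05), Ccna2 (0.96) and Mki67 (0.77). WT minus Cbfb+/+ was -0.96 for both Ccnb2 and Ccna2, -0.90 for Birc5 and -0.81 for Cenpa. Cbfb+/MYH11 minus Cbfb-/- was 0.16 for Birc5 and 0.34 for Cenpa. In arrays 3 and 4 alone Ccna2, Mki67 and Birc5 were not called, and with array pairs as random blocks none of the 6 was. The call of Cenpa was also lost without either of 2 single arrays (adjusted p up to 0.061). Of 20 genes of the G1 phase 5 were higher and 1 lower (30% called, against 20.9% of all genes). For 3 of the 20 the filter was passed through the fusion arrays alone, so this share may follow in part from the filter. With array pairs as random blocks Ccnd3 alone stayed called. Ccnd3, the D-type cyclin of red cells, was at 1.41, the pocket proteins Rb1 and Rbl2 at 1.45 and 1.44, and the inhibitor Cdkn1a at 0.82, while Ccnd1 was lower at -1.12. Among 10 genes of the p53 response and cell death 5 were higher and 0 lower (50% called, against 20.9% of all genes). The 5 were Ccng1 at 1.15, Phlda3 at 0.86, Trp53inp1 at 0.88, Mcl1 at 0.67 and Mdm2 at 0.60. After quantile normalization 2 of the 10 were called, and with array pairs as random blocks none. The calls of Mdm2 and Mcl1 were lost without any 1 of 6 arrays and without WT array 1, at differences as small as 0.57 in each.

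Of 19 genes of hypoxia and glycolysis 2 were higher and 2 lower (21.1% called, against 20.9% of all genes), with a median of 0.13. For 1 of the 19 the filter was passed through the fusion arrays alone. The platelet-type phosphofructokinase Pfkp was at 3.52 and the glucose transporter Slc2a3 at 1.69, against -1.34 for Aldoc and -1.31 for Pkm. The call of Pkm was lost without any 1 of 10 arrays (adjusted p up to 0.08), and with array pairs as random blocks neither lower gene stayed called (adjusted p 0.474 and 0.247). Of 13 immediate early and stress genes 3 were higher and 1 lower (30.8% called, against 20.9% of all genes). The antiproliferative gene Btg2 rose with the fusion and fell in the null, for a difference of 1.75, and the chaperone Hspa1b was at 1.77 (not called with random blocks, adjusted p 0.0779). Fos, an immediate early gene, read 6.82 to 7.06 in Cbfb+/MYH11 against 8.14 to 8.78 in WT, and 7.92 to 8.10 in all 6 arrays of the other cross. The fusion arrays lay below and the WT arrays above all arrays of the other cross, and the difference was -1.57 (-1.99 to -1.16), adjusted p 6.7e-05.

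Of 19 genes known from the nervous system and tested, 17 rose in the null (all genes 19.5%) and 4 with the fusion (all genes 30.5%). The difference was lower in 7, higher in 0 and not called in 12 (36.8% called, against 20.9% of all genes), with a median of -2.05. For 5 of the 19 the filter was passed through the null arrays alone, so these counts follow in part from the filter, and without a filter the 31 listed genes with a probe set had a median of -1.34. Dmrta2, a forebrain transcription factor, read 8.24, 8.06 and 8.35 in Cbfb-/- and 3.76 to 4.27 in Cbfb+/+, with 3.72 to 3.87 in WT and 3.66, 3.50, 4.71 and 4.92 in Cbfb+/MYH11. The null arrays stood alone, while fusion arrays 3 and 4 were somewhat above the rest. The difference was -3.79 (-4.68 to -2.91), adjusted p 2.5e-05. Sox3, a factor of neural progenitors, read 7.12, 7.42 and 7.25 in Cbfb-/- and 3.83 to 4.31 on all other arrays, a difference of -3.48 (-3.86 to -3.10). Lhx2 (-3.06), Fez1 (-2.42), Neurog2 (-1.80), Nes (-1.34) and Hes5 (-0.95) were the other called members. Neurog2 was not called without any 1 of the 3 Cbfb+/+ arrays (adjusted p up to 0.06), and with array pairs as random blocks Dmrta2 and Sox3 stayed called.

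Other neural genes rose in both mutants. Fabp7, the fatty acid binding protein of radial glia, read 7.52, 7.55, 8.37 and 8.38 in Cbfb+/MYH11 and 7.72 to 7.82 in Cbfb-/-, with effects of 3.46 and 3.98 and a difference of -0.52 that was not called. Over the 31 listed neural genes with a probe set, the median log2 level was 6.24 to 6.51 in Cbfb-/-, 4.74 to 6.16 in Cbfb+/MYH11, 4.1 to 5.05 in WT and 4.17 to 4.30 in Cbfb+/+. Within the fusion cross it was higher on arrays 3 and 4 of both genotypes. The labelled tissue is blood, and the part of these transcripts in other lower differences was not tested. Cdon (-3.04), Tnfrsf19 (-2.73), Nr2f1 (-2.69), Plagl1 (-2.98) and Prom1 (-2.42), all lower and outside the neural list, also had null effects of 2.38 to 3.30 and no called fusion effect. With array pairs as random blocks Cdon alone of the 5 stayed called. The calls of Nr2f1 and Plagl1 were lost without any 1 of 7 and of 9 arrays (adjusted p up to 0.081 and 0.071).

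Genes of the liver and visceral endoderm were lower in 5 of 10 tested (50% called, against 20.9% of all genes). Their median of -2.46 was -3.90 with arrays 1 and 2 and -0.61 with arrays 3 and 4. Cubn, an uptake receptor of visceral endoderm and gut, had the most negative difference of all genes tested at -4.49 (-6.44 to -2.54), adjusted p 0.0027. It read 3.22 to 3.62 in Cbfb+/MYH11, 6.23, 6.88, 3.66 and 3.68 in WT, 6.75, 6.55 and 7.12 in Cbfb-/- and 3.83 to 4.27 in Cbfb+/+. WT arrays 1 and 2 were nearest to the null arrays, and WT arrays 3 and 4 were near the fusion arrays. The retinol carrier Rbp4 (-3.26) and the apolipoproteins Apoa1 (-3.04) and Apoa2 (-2.43) were lower too, as was Hnf4a (-0.99). Under random blocks Cubn and Rbp4 stayed called, at limma's adjusted p of 0.0433 and 0.0212. As pools the interval of Cubn ran from -9.02 to 0.04 and so held both signs. That of Rbp4 ran from -5.535 to -0.9835. Afp read 11.97 and 11.86 in WT arrays 1 and 2 but 6.33 and 6.20 in arrays 3 and 4, and its difference of -3.23 (-7.27 to 0.80) was not called. The summed level of the 21 listed liver genes with a probe set, on the log2 scale, ran from 9.33 to 10.42 in Cbfb+/MYH11, from 9.67 to 12.58 in WT, from 12.36 to 12.49 in Cbfb-/- and from 11.28 to 11.29 in Cbfb+/+.

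Of 21 mesenchymal genes tested 5 were lower and 1 was higher (28.6% called, against 20.9% of all genes), with a median of -0.99. For 2 of the 21, Meox1 among them, the filter was passed through the null arrays alone, and for 1 through the WT arrays alone. In the fit with random blocks none of the 5 lower calls remained (limma's adjusted p 0.102 to 0.533) and the higher one, Col5a1, stayed called. The lower ones were Meox1 (-1.30), Twist1 (-1.04), Col6a2 (-0.99), Col6a3 (-0.87) and Fn1 (-0.81). Without any 1 of 8 arrays Meox1 was not called, without any 1 of 4 Fn1, and without Cbfb+/+ array 1 Col6a3 (adjusted p up to 0.11, 0.07 and 0.051). Col5a1, a fibrillar collagen chain, went against its list. It read 9.86 to 10.06 in Cbfb+/MYH11, 6.83, 6.89, 7.85 and 7.78 in WT, 6.99 to 7.30 in Cbfb-/- and 6.93 to 7.11 in Cbfb+/+. Only the fusion arrays were high, for a difference of 2.55 (1.87 to 3.23), adjusted p 7.8e-05. The cardiac actin Actc1 was lower at -3.11 (adjusted p 0.033), with WT values of 6.54, 6.75, 9.83 and 9.79 that split by array pair, and it was not called without any 1 of 8 arrays (adjusted p up to 0.069). The median level of 25 mesenchymal genes was likewise 7.65 to 7.73 in WT arrays 3 and 4 and 5.93 to 5.97 in WT arrays 1 and 2. Krt8 and Krt18, keratins of simple epithelia, were lower at -1.60 and -1.06. With array pairs as random blocks Actc1, Krt8 and Krt18 were not called (adjusted p 0.165, 0.191 and 0.401).

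Several of the largest differences fell outside every list. Fam221a (4.72), the sialic acid enzyme Npl (4.48), Tmem71 (4.46), 1700042O10Rik (4.33), Flot2 (3.93), Wnt2 (3.86), Prnp (3.54), which encodes the prion protein, and the adenylate cyclase Adcy7 (3.49) had a called fusion effect and no called null effect. Prap1 was lower at -3.44, from WT values that differed from Cbfb+/+ by 2.02, and lost its call without any 1 of 5 arrays (adjusted p up to 0.057) and with random blocks (adjusted p 0.137). Of 6 tested genes of the stem and progenitor surface 2 were higher, the transglutaminase Tgm2 (2.57) and Itga4 (0.76). Itga6 (-0.84) and Prom1 (-2.42) were lower (66.7% called, against 20.9% of all genes). Of 8 interferon and MHC genes tested, the class I gene H2-D1 (1.73) was higher and Ifitm3 (-1.38) lower (25% called). With random blocks Tgm2 and H2-D1 alone of these stayed called. Skap1, an adaptor of lymphocytes, was the only lymphoid gene tested. It was lower (-1.66) after falling in both mutants, though not called with random blocks (adjusted p 0.24).

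Members of core binding factor itself were not called. Cbfb read 8.44, 8.56, 6.91 and 7.06 in Cbfb+/MYH11, against 6.62, 6.57, 8.31 and 8.14 in WT, with 7.03, 6.80 and 6.98 in Cbfb-/- and 6.52, 6.56 and 6.27 in Cbfb+/+. The null arrays were not below their littermates, and the fusion and WT arrays changed places between the pairs, so that the difference was 1.42 with arrays 1 and 2 and -1.73 with arrays 3 and 4. Where this probe set lies in the gene relative to the deleted or fused part is not given in the sources used here, so it checks no label. Over 14 arrays the difference was -0.15 (-1.63 to 1.33). Of the 3 tested genes on either side of Cbfb only Ciao2b was called (0.86; adjusted p 0.287 with random blocks, not called), and Dync1li2, Nae1, D230025D16Rik, Tradd and Fbxl8 lay between -0.08 and 0.19.

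Runx1 had a difference of 0.08 (-0.45 to 0.61), Runx3 0.03 and Myh11 0.13. Of 20 genes of core binding factor and its corepressors 3 were higher (15%, against 14.9% of all genes) and 0 lower, with a median of 0.04. Under random blocks none of the 3, Cbfa2t3, Runx1t1 and Chd7, stayed called (limma's adjusted p 0.136, 0.147 and 0.541). Runx1t1, the corepressor known from another leukemia fusion, had a called null effect of -1.56 and a fusion effect of -0.13 that was not called, for a difference of 1.43, and the chromatin remodeller Chd7 was at 0.75. Of 15 reported Runx1 targets 8 were higher and 2 lower (66.7% called, against 20.9% of all genes), with a median of 0.82. In the fit with random blocks Cebpa and Gata2 alone stayed called. In the null 11 of the 15 fell (all genes 6.66%), against 5 with the fusion (all genes 5.63%). The list shares Cebpa, Csf1r, Gata2, Gfi1b, Itga2b, Nfe2, Spi1 and Cdkn1a with those above, and its lower members were Pf4 and Myl9.

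**Figure D5:**
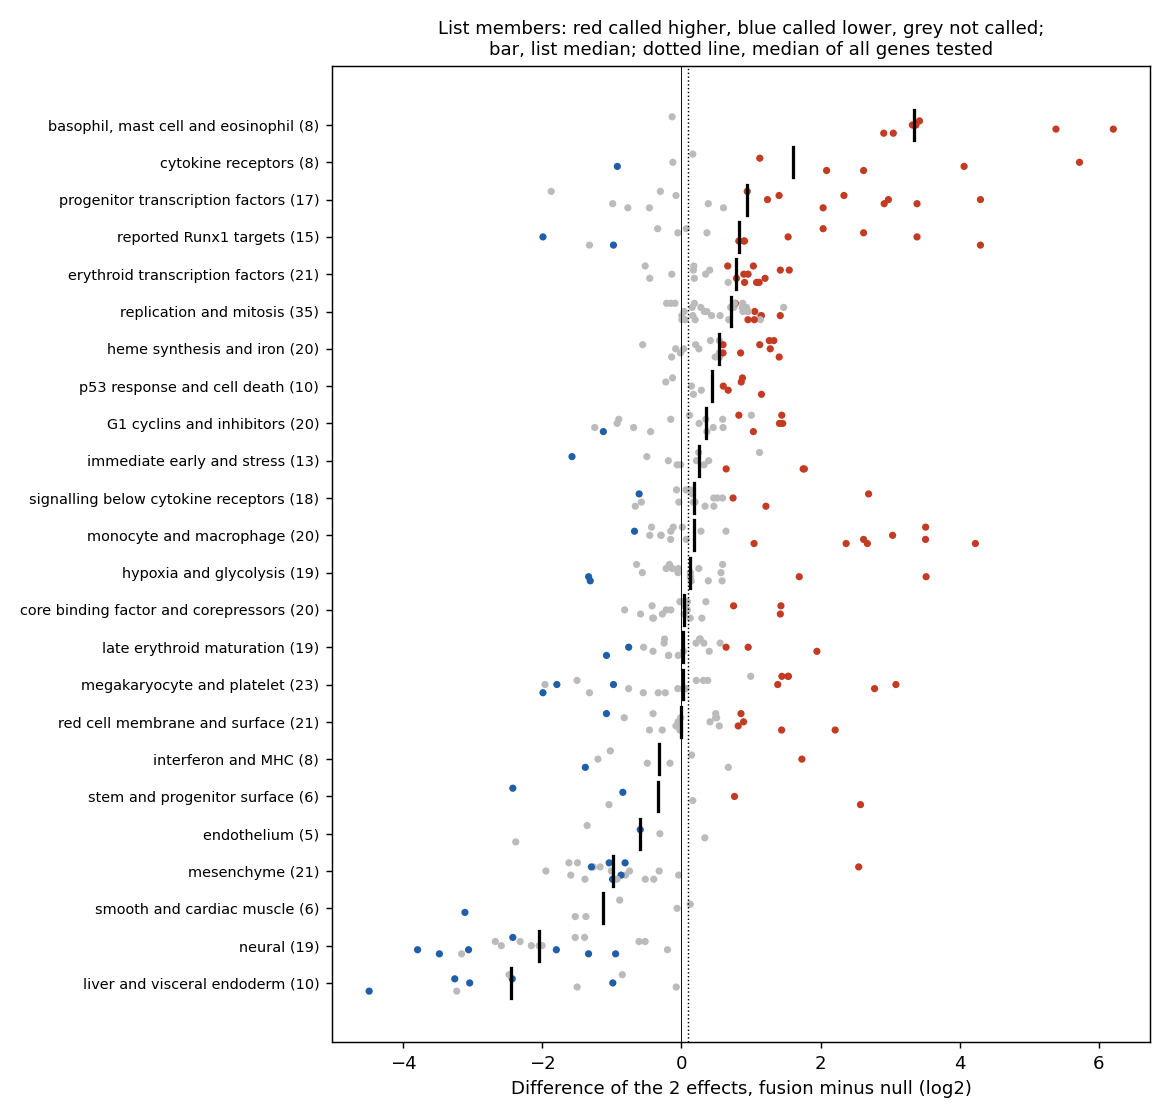
Difference of the 2 effects on the log2 scale for the tested members of each list with at least 5 of them, with the list median as a black bar and the median of all genes tested (0.09) as a dotted line. Among genes that passed the filter, basophil genes (median 3.35) and cytokine receptors (1.61) lie farthest right, and neural (-2.05) and liver genes (-2.46) farthest left, whereas without a filter the basophil and cytokine receptor medians are 0.32 and 0.10, below that of replication and mitosis (0.69).

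The difference can also be read as the mutants against each other minus the WT against Cbfb+/+. Of the 1099 higher genes 808 also differed, in the same direction and past the call threshold, between Cbfb+/MYH11 and Cbfb-/- directly, and in 976 all 4 fusion arrays were above all 3 null arrays. In 117 of the 289 whose mutants were not called apart, the 2 littermate groups were. Of the 449 lower genes 287 differed between the mutants, in 394 the fusion arrays were all below the null arrays, and in 56 of the other 162 the littermates were called apart. These genes were chosen for a difference that includes the mutants' values, so such counts follow in part from the choice. The same counts were not made over all genes tested. Xist, the transcript of the inactive X in female cells, had values of 8.50, 8.62, 9.45 and 9.51 in Cbfb+/MYH11, 7.58, 7.40, 9.29 and 9.14 in WT, 7.31 to 7.53 in Cbfb-/- and 8.29 to 8.35 in Cbfb+/+. It differed between groups and between array pairs, its difference was 1.59 (adjusted p 0.07; called without WT array 3 or WT array 4, at 1.90 and 1.85), and the part of the pools' makeup in the other results was not tested.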

How the data were processed

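Blood RNA was measured on Affymetrix mouse expression arrays. RMA and Affymetrix Expression Console are named, without versions, in the submitters' processing notes, and the log2 values that the authors deposited were taken as they stand. They cover 45101 probe sets and 14 arrays, and 0 columns belonged to other series. The number of arrays limits the precision, and the number of independent pools may be smaller than that.

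The platform table gave 1 symbol to 34945 probe sets, several to 932 and none to 9160, and 64 were controls. Each of 18193 genes took its probe set with the highest mean. The filter (log2 value at or above 6 on 3 or more arrays) left 7392 genes, of which 7381 matched RefSeq by identifier. All 14 arrays entered 1 model of 4 groups without covariate in limma 3.58.1 (R 4.3.3; lmFit, contrasts.fit, eBayes; 10 residual and 2.82 prior degrees of freedom). P-values were adjusted by Benjamini and Hochberg over all genes tested. The script was tested on simulated data.

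The members and the 29 gene lists were chosen with earlier results of these data known. Named genes were the 12 largest differences each way called in both array pairs, up to 4 per list, 8 with opposite effects, 6 each way with equal effects, a fixed set, and 3 neighbours on each side of Cbfb and Csf2rb. Fez1, Mrc1, Csf1r, Afp, Srgn, Wnt2 and others not covered by this rule were named after their values were seen. Same-numbered arrays of the fusion cross deviated together (correlations 0.407 to 0.521) and those of the other cross did not (0.0114 to 0.0342). Pairing the first by their number is read from the data and not from the labels. The main model did not use this pairing, while the fit with the replicate number as a block did.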

Additional observations from a re-analysis of the deposited data

Results flagged for a closer look

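The 2 mutants' effects differed past the threshold of limma's test of the difference itself in 1548 genes. Among the named genes both effects were called in opposite directions, up with the fusion and down with the loss of Cbfb, for Rac2 (difference 4.48), Dapp1 (4.32), Gata2 (4.30), Fcgr3 (4.23), Spns2 (3.93), Srgn (3.92), Emilin2 (3.51), Itgb2 (3.51), Lyz1 (3.51), Cebpa (3.39) and Cpa3 (3.37). The same held for Slc18a2 (3.32), Laptm5 (3.04), Ank (3.01), Myb (2.91), Plek (2.78), Inpp5d (2.69), Lmo2 (2.34), Slc2a1 (2.21) and Il10rb (2.09), and for Btg2 (1.75), Rb1 (1.45), Tgfb1 (1.44) and Cbfa2t3 (1.42). The signs were turned in Cubn (-4.49), Rbp4 (-3.26), Apoa1 (-3.04) and Apoa2 (-2.43).

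Single arrays stood apart from the other 3 of their group by Dixon's criterion for 7 of 352 groups examined, where chance gives about 1 in 20. WT array 1 read 5.17 for Csf2rb2 against 5.62 to 5.70. WT array 2 read 6.67 for Cdkn1a against 6.43, 7.98 for Mdm2 against 7.60 to 7.63, 10.47 for Slc2a1 against 10.27 to 10.30 and 6.18 for Sox6 against at most 6.01. Cbfb+/MYH11 array 2 read 9.62 for Mcl1 against 9.70 to 9.71, and array 3 read 7.25 for Nes against 7.05 to 7.08. Outside the named genes, 103 of 718 tested probe sets without a gene symbol were called for the difference, 70 higher and 33 lower.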

How the results depend on the processing

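How the array pairs of the fusion cross were treated moved the counts most. As random blocks they left 220 genes called, 194 higher and 26 lower, of which 189 had a fusion effect only, and 0 genes met the rule for the same change. As 6 pools, limma gave 0 for called, higher, lower, fusion effect only and same change, with 571 genes at an unadjusted p under 0.05. Arrays 1 and 2 alone gave 2423 called, 1730 higher, 693 lower and 409 with the same change, and arrays 3 and 4 gave 2377, 1281, 1096 and 335. Cbfb had the opposite sign to its value over all arrays with arrays 1 and 2 (1.42), and Afp and Mrc1 with arrays 3 and 4 (0.84 and 1.03). With the replicate block 1899 genes were called, 683 of them lower, and 241 showed the same change. It lost the calls of Ifitm3 and Isg20 and added that of Xist among the genes named in the text. Quantile normalization gave 1393 calls, 1230 of them shared with the main setting, and a median difference of -0.0024. Without a filter 744 genes were lower and the median was -0.034. A filter at 7 gave 1031 called, 223 lower, a median of 0.18 and 940 called in both array pairs, against 968 with probe sets averaged and 1468 in the main setting. Leaving out 1 array gave 1260 to 1687 called genes and 84 to 153 with the same change. Of 150 named genes called, 122 kept the call without any 1 array, 56 with random blocks and 0 as pools. The cause of these changes was not tested.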

Other observations

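The share of genes with a called difference ranged from 14.6% to 25.1% over the 20 chromosomes compared, with the highest share on the X chromosome and the lowest on chromosome 16. Of 407 tested probe sets that carry several gene symbols, and so name none, 58 were called.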
